A study of Mus musculus with 23 samples.

Results

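The transcripts of the mitochondrial ribosomal protein genes were followed in F9 cells during 48 h of retinoic acid. The genes were chosen by symbol alone: Mrpl or Mrps, a number and at most a letter a, b or c, with pseudogenes left out. This gave 77 of the 36814 genes in each count table, 48 with an Mrpl symbol and 29 with an Mrps symbol, and 76 of them passed the filter on low counts. The exception was Mrpl53, with 6 counts in all, spread over 5 libraries. F9 is a single mouse embryonal carcinoma line whose cells turn toward extraembryonic endoderm when they are given retinoic acid. All-trans retinoic acid (RA) was given at 1e-07 M, and the control cultures received its solvent, dimethyl sulfoxide (DMSO), at 0.001%. Of the 14 mRNA libraries 4 are from cells before RA (0 h) and 8 from cells in RA, a pair for each of 6, 12, 24 and 48 h. The remaining 2 are from DMSO cultures, 1 taken at 24 h and 1 at 48 h. The series also holds chromatin immunoprecipitation samples of the RA receptors, which were not used here.

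Mitochondria keep their own ribosome, which makes the few proteins that are still encoded by mitochondrial DNA, all of them parts of the respiratory chain and the ATP synthase. Its RNAs come from mitochondrial DNA, while all of its proteins are encoded in the nucleus, made in the cytosol and imported. Proteins of the large subunit mostly carry Mrpl symbols and those of the small subunit Mrps symbols, but the products of Mrps18a and Mrps30 sit in the large subunit, and the product of Mrps36 is now known as a part of the 2-oxoglutarate dehydrogenase complex.

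Promoter sequence was available for 68 of the 77 genes, from RefSeq on build GRCm38.p6, as windows of 300 bases around the annotated start. Each window was searched on both strands for the core motifs of NRF1 (GCGCA, any base, then GCGC) and of ETS factors such as GABPA (CCGGAAG), which are known from promoters of nuclear genes for mitochondria, and for those of YY1 (ATGGCGG) and of E-box factors such as MYC (CACGTG). The NRF1 motif was found at 13 of the 68 genes (19.1%), against 5.19% of all 27025 genes with a window and 10.8% of the 10880 of them that were tested for expression. For the ETS motif the shares were 36.8% of the members, 9.93% of all genes and 18.8% of the genes tested, and for the YY1 motif 19.1%, 4.69% and 8.91%. The E-box was found at 5 members (7.35%), against 8.09% of all genes and 11.8% of the genes tested. At least 1 of the NRF1, ETS and YY1 motifs was found at 60.3% of the members and at 33% of the genes tested. A match is only a run of letters, and the motifs were chosen with the expression values known.

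The 150 bases before the start are shown for 4 genes that the expression results below turn on. Mrps24 had the largest decrease of all members at 48 h, Mrpl12 the largest among Mrpl symbols, Mrps27 was among the 8 largest, and Mrpl41 was the only member with both 48 h libraries above every 0 h library. Capitals mark a motif, NRF1 in Mrpl12 and ETS in Mrps27, each read on the strand opposite to the one shown. The whole windows of Mrps24 and Mrpl41 held none of the 4 motifs, and that of Mrps27 also held a YY1 motif that is not within the part shown. The first sequence is that of Mrpl12, at chr11:120484487-120484636 on the plus strand.
Mrpl12: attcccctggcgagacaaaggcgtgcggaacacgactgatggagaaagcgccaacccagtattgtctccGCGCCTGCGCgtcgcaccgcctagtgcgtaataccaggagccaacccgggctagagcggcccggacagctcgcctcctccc
The next lies at chr13:99344636-99344785 on the plus strand.
Mrps27: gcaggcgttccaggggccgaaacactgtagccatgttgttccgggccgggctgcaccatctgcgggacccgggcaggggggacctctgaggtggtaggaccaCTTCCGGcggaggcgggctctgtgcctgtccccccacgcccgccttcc
The sequence of Mrps24 lies at chr11:5707702-5707851 on the minus strand.
Mrps24: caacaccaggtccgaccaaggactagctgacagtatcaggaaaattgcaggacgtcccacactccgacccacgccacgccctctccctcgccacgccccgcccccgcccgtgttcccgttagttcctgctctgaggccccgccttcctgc
The last, also on the minus strand, lies at chr2:24975099-24975248.
Mrpl41: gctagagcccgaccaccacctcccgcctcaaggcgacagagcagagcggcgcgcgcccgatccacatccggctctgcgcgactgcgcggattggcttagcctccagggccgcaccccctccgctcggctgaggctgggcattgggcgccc

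Many members also share their start region with a neighbour. In the same later annotation 26 of the 68 genes (38.2%) had a gene on the other strand that starts within 1000 bases and runs the other way, against 12.2% of all genes with a window and 18.9% of those tested. The partner of Mrps27 was Ptcd2, that of Mrpl41 was Pnpla7, that of Mrpl18 was Tcp1 and that of Mrps18b was Ppp1r10. Some partners belong to the other gene lists described below. Twnk was the partner of Mrpl43, which it also overlaps, and Sars2 that of Mrps12. The spans of 24 of the 77 genes overlapped another gene, a share that was not counted over all genes. Among them were Mrps6, which overlaps Slc5a3, a transporter of myo-inositol, and Mrpl18, which overlaps Tcp1, a chaperonin subunit. Whether reads were counted by strand is not stated in the sources used here, so counts of overlapping genes are uncertain, and so are those of Mrps36, Mrpl23 and Mrpl48, which have annotated pseudogene copies.

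Gene counts per library totalled 7.079 to 10.95 M (mega), of which the members took 0.3462 to 0.583%. Reads that fell in no annotated feature split the libraries into 2 sets. As a share of these reads plus the gene counts, they made up 57.3 to 59.43% in set 1 and 52.51 to 53.77% in set 2. Both DMSO libraries and, for 0 h and each RA time, the library numbered 1 belong to set 1, and all others to set 2. Of the 76 members 16 were higher and 15 lower in set 2 than in set 1 across all groups, when 22% of all genes tested were higher and 20.1% lower. The main fit below carries a term for the set, and fits without that term or in set 2 alone are named where they are given. All 8 listed F9 and pluripotency markers were present at 0 h, where they summed to 4429 to 5549 CPM (counts scaled for library size by the TMM method). They summed to 1128 to 1960 CPM after 48 h of RA, while 11 primitive and parietal endoderm markers went from 228 to 441 CPM to 5516 to 7503 CPM. Because these are bulk samples, fewer cells of a type and less RNA per cell cannot be told apart. Of markers of other cell types, 7 for fibroblasts summed to 11.5 to 29.3 CPM at 0 h and 4.31 to 6.93 CPM at 48 h, 5 for blood cells to 23.2 to 34.9 and 19.2 to 22.7 CPM, and 7 for neurons to 217 to 291 and 130 to 150 CPM. The fibroblast sum at 0 h was mostly Thy1, at 11.1 to 28.6 CPM, which fell to 1.03 and 1.25 CPM. Col1a1 and Dcn of that list were called higher at 48 h, at up to 2.87 and 2.42 CPM, and so was the neuron marker Dcx, at up to 2.84 CPM. Of the listed genes, Hba-a1, Lyz2 and Postn had 0 counts at 0 h and at 48 h, while others of the lists were present throughout. The blood cell marker Csf1r stood at 16.2 to 23.2 CPM at 0 h and at 15.5 and 13.7 CPM at 48 h. The neuron marker Tubb3 stood at 124 to 210 CPM at 0 h and at 98.9 and 72.8 CPM at 48 h. The part of any of these in the results below was not tested.

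Summed over the 76 members tested, transcript levels were 5002, 5029, 6077 and 5303 CPM in the 4 libraries at 0 h. They were 5106 and 5104 CPM after 6 h of RA, 4581 and 4709 CPM after 12 h, 4475 and 3713 CPM after 24 h, and 3205 and 3220 CPM after 48 h. The 6 h libraries lay within the range of 0 h, and from 12 h on both libraries of each time lay below all 4. The DMSO libraries held 4850 CPM at 24 h and 4757 CPM at 48 h, a little below the lowest 0 h library and above every RA library of 12, 24 and 48 h. Large and small subunit symbols moved in step, since the ratio of the Mrpl sum to the Mrps sum stayed between 1.8 and 1.98 in all 14 libraries.

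**Figure D1:**
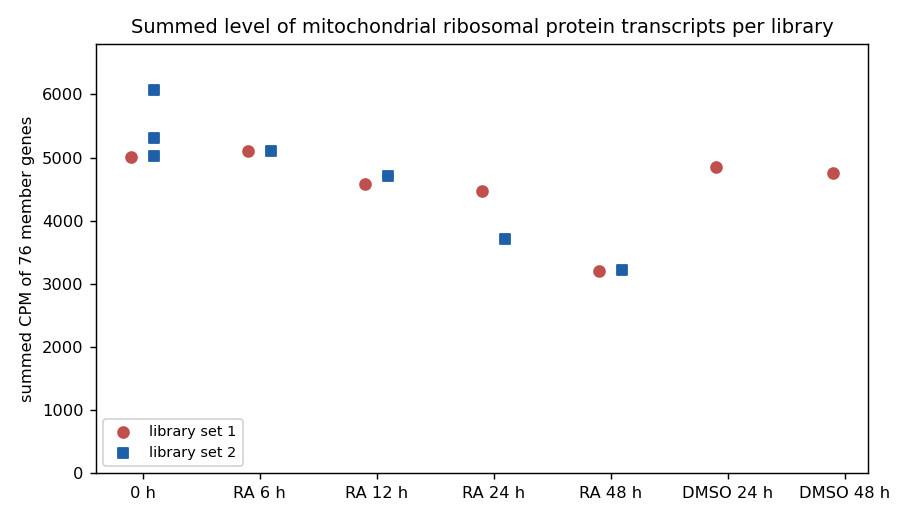
Summed CPM of the 76 member genes tested (y axis, from 0) in each mRNA library, by group (x axis), with circles for library set 1 and squares for set 2. The 2 libraries at 48 h of RA lie at 3205 and 3220 CPM, below all others, and the DMSO libraries at 4850 and 4757 CPM.

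At 48 h of RA the decrease reached most of the family. Of the 76 members tested 64 fell and 0 rose against 0 h (edgeR's quasi-likelihood test, adjusted p under 0.05), a share of 84.2% when 22.9% of all 16155 genes tested fell and 25.8% rose. No member was higher at an unadjusted p under 0.05 either, and DESeq2 called 64 lower and 0 higher. The median log2 change of the members was -0.68, with an interquartile range of -0.88 to -0.49, beside a median of 0.016 and a range of -0.51 to 0.73 for all genes tested. Among Mrpl symbols 40 of 47 fell (median -0.72) and among Mrps symbols 24 of 29 did (median -0.67). Standard errors (SE) of single members ran from 0.11 to 0.49 with a median of 0.16. The number called was 40 without replicate 2 of 48 h and 40 in library set 2 alone, and 28 members were called under every setting that kept this threshold. The labels do not state whether libraries of a group stem from separate cultures, so a p-value here reflects only how these libraries vary, possibly for technical reasons.

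**Figure D2:**
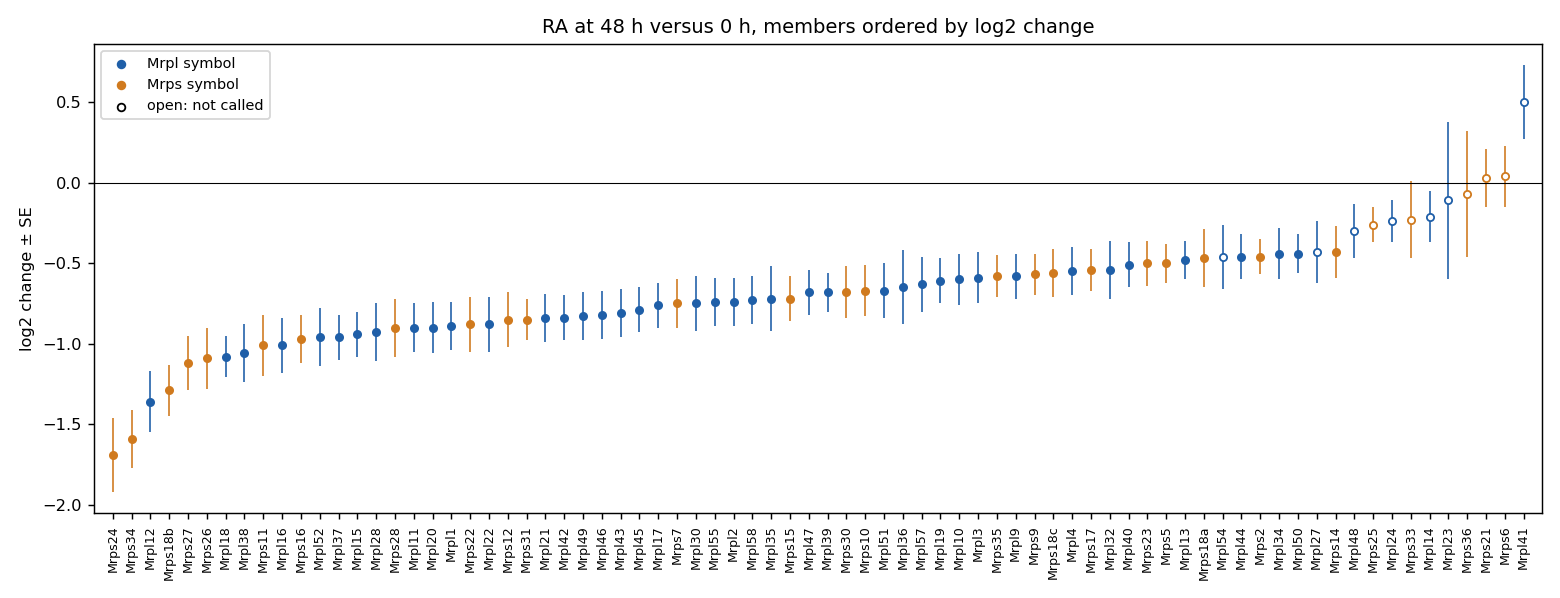
Log2 change ± SE (y axis) of each of the 76 members at 48 h of RA against 0 h, ordered from the largest decrease (x axis). Colours separate Mrpl from Mrps symbols, and open circles mark members that were not called. Values run from -1.69 for Mrps24 to 0.50 for Mrpl41, and 73 of 76 lie below 0.

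Both members with the largest decreases carry Mrps symbols. Mrps24 (ENSMUSG00000020477), a relative of bacterial S3, stood at 118, 68.5, 110 and 69.5 CPM in the 4 libraries at 0 h, at 92.5 and 37.2 CPM after 24 h of RA, at 41.7 and 24.5 CPM after 48 h, and at 125 and 121 CPM in DMSO. Both 48 h libraries lay below every control library, and within each RA time the library of set 1 was the higher of the pair. The log2 change was -1.69 ± 0.23 (adjusted p = 4.4e-05), and its level in set 2 was lower than in set 1 by a log2 change of -0.77 ± 0.14. Mrps34 (ENSMUSG00000038880), a small subunit protein without a bacterial relative, stood at 63.9, 59.1, 82 and 54.6 CPM at 0 h. It stood at 31.7 and 28.3 CPM after 24 h of RA, at 20.5 and 23 CPM after 48 h, and at 53.3 and 52.5 CPM in DMSO. The RA libraries of both times lay below all 6 control libraries, and the log2 change at 48 h was -1.59 ± 0.18 (adjusted p = 1.19e-05).

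Mrps18b (ENSMUSG00000024436) is one of 3 mammalian relatives of a single bacterial protein, S18, and the 3 did not change alike in size. It stood at 55.9, 63.1, 85.2 and 65.5 CPM at 0 h, at 28.8 and 35.7 CPM after 24 h of RA, at 23.8 and 29.5 CPM after 48 h and at 48.9 and 42.1 CPM in DMSO. Its RA libraries of 24 and 48 h lay below all control libraries, with a log2 change of -1.29 ± 0.16 at 48 h (adjusted p = 2.71e-05). Mrps18c fell by 0.56 ± 0.15 (adjusted p = 0.00568, but 0.0546 without replicate 1 of 48 h and 0.185 in library set 2 alone), although its 48 h libraries, at 26.2 and 32.1 CPM, stood close to the DMSO libraries at 35.5 and 32.4 CPM. Mrps18a, at -0.47 ± 0.18 (adjusted p = 0.0404), held 41.6 and 44.6 CPM in DMSO, between its 2 libraries of 48 h. These were at 36 and 53.7 CPM against 50.5 to 79.9 CPM at 0 h. Those groups overlap, and its call was lost under 11 of the other settings, with an adjusted p of 0.0535 to 0.276. The difference between the 3 changes was not tested.

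Mrps27 (ENSMUSG00000041632), which carries pentatricopeptide repeats of the kind found in RNA-binding proteins, stood at 64.5, 83.8, 113 and 83.1 CPM at 0 h. It was at 35.4 and 40.4 CPM after 48 h of RA and at 79.9 and 72.3 CPM in DMSO. The 48 h libraries lay well below all controls, with a log2 change of -1.12 ± 0.17 (adjusted p = 0.00013). Mrps26, a small subunit protein, changed by -1.09 ± 0.19, with 64.6 to 88.4 CPM at 0 h and 35 and 37.6 CPM at 48 h. Among members that descend from bacterial proteins, Mrps16 fell by 0.97 ± 0.15 and Mrps12, a protein of the decoding site, by 0.85 ± 0.17. Mrps12 missed the threshold without replicate 2 of 48 h (-0.65, adjusted p = 0.0542). Mrps22, which has no bacterial relative, fell by 0.88 ± 0.17, and Mrps5 by 0.50 ± 0.12. Mrps30, whose product belongs to the large subunit in spite of its symbol, fell by 0.68 ± 0.16. Without replicate 2 of 48 h Mrps30 and Mrps5 were at -0.63 and -0.38, with an adjusted p of 0.067 and 0.0952, and in library set 2 alone Mrps5, Mrps22 and Mrps30 missed the threshold too (adjusted p = 0.064, 0.0512 and 0.0631).

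**Figure D3:**
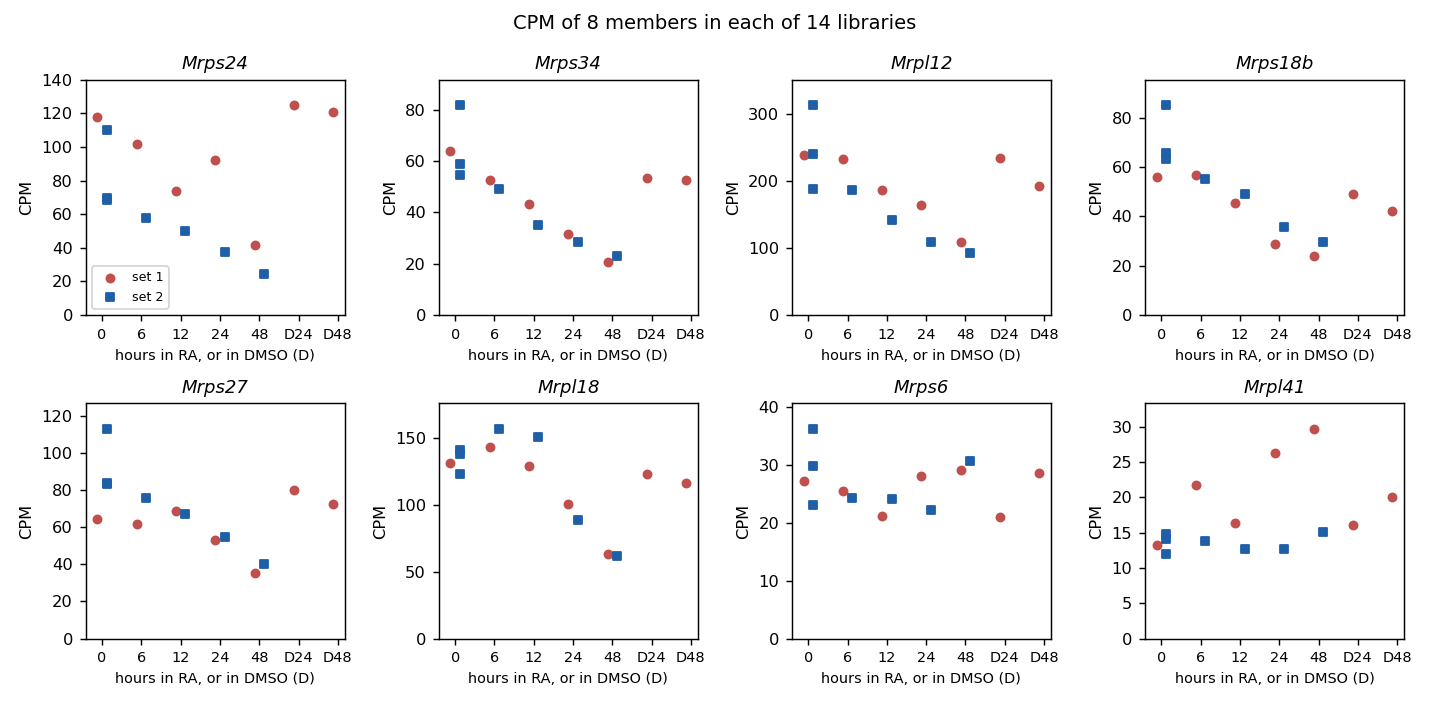
CPM (y axes, from 0) of 8 members in each of the 14 mRNA libraries, by hours in RA or in DMSO (x axes), with circles for library set 1 and squares for set 2. Mrps24, Mrps34, Mrpl12, Mrps18b, Mrps27 and Mrpl18 lie lowest, within each set, at 48 h of RA, while Mrps6 stays between 20.9 and 36.2 CPM and Mrpl41 reaches 29.7 CPM in set 1.

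In the large subunit Mrpl12 (ENSMUSG00000039640) fell most. Its protein forms the flexible stalk that contacts translation factors, and is also known to bind the mitochondrial RNA polymerase. It stood at 239, 187, 313 and 240 CPM at 0 h, at 164 and 109 CPM after 24 h of RA, at 109 and 92.1 CPM after 48 h, and at 234 and 192 CPM in DMSO. The 24 and 48 h libraries lay below all 6 control libraries. The log2 change at 48 h was -1.36 ± 0.19 (adjusted p = 7.77e-05). The other proteins of the stalk and its base, Mrpl10 and Mrpl11, fell by 0.60 ± 0.16 and by 0.90 ± 0.15. Mrpl10 was at -0.58 without replicate 2 of 48 h (adjusted p = 0.078) and at -0.59 in set 2 alone (adjusted p = 0.0508).

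Mrpl18 (ENSMUSG00000057388), known to bind RNA, stood at 131, 123, 138 and 141 CPM at 0 h and at 63.2 and 61.9 CPM after 48 h, a log2 change of -1.08 ± 0.13 (adjusted p = 1.39e-05). Its 6 h libraries, at 143 and 157 CPM, lay above all of 0 h, and the DMSO libraries stood at 123 and 116 CPM. The level was thus lower than at 0 h only from 24 h on, at 101 and 88.5 CPM. Mrpl38, a protein without a bacterial relative, changed by -1.06 ± 0.18, from 85.4 to 119 CPM at 0 h to 50.3 and 46 CPM. Mrpl3, which lies near the catalytic centre of the ribosome, fell by 0.59 ± 0.16, to 59 and 76.4 CPM, beside 71.8 and 78 CPM in DMSO. It did not pass without replicate 1 of 48 h (-0.49, adjusted p = 0.0711) or in set 2 alone (-0.47, adjusted p = 0.0748).

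Of the 12 members that were not called at 48 h, 9 still had a log2 change below 0. Mrpl41 (ENSMUSG00000036850), whose product is also known to bind Bcl-2, stood at 13.2, 11.9, 14.1 and 14.8 CPM at 0 h, at 26.2 and 12.7 CPM after 24 h of RA, and at 29.7 and 15.1 CPM after 48 h. DMSO libraries held 16.1 and 20 CPM. The increase was thus large in the library of set 1 and slight in that of set 2, and the set 1 libraries of DMSO were also above their 0 h library. The log2 change of 0.50 ± 0.23 did not pass (adjusted p = 0.0953). With the replicate number as a block, over replicates 1 and 2, it was 0.75 (adjusted p = 0.0197). For these replicates number and set coincide, so the block is the same as the set term. That fit left out 0 h replicates 3 and 4, at 14.1 and 14.8 CPM, and both DMSO libraries.

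Mrps6 (ENSMUSG00000039680) stood at 27.2, 23, 29.8 and 36.2 CPM at 0 h and at 29.1 and 30.6 CPM after 48 h, inside that range, with a log2 change of 0.04 ± 0.19. Mrpl54 went from 51.1 to 65.5 CPM at 0 h to 48.5 and 42.3 CPM at 48 h, below all 0 h libraries, but its log2 change of -0.46 ± 0.20 did not pass (adjusted p = 0.0695). Mrps21 was at 0.03 ± 0.18, but against 0 h of the same set it was at 0.43 in set 1 and at -0.17 in set 2. The log2 change of Mrpl48 was -0.30 ± 0.17. Mrpl48 differed between the library sets more than between times, at 46.3 CPM in the set 1 library of 0 h and 18 to 18.9 CPM in the 3 of set 2. Mrpl23 was near the limit of counting, at 1.05 to 2.53 CPM at 0 h, and its log2 change of -0.11 ± 0.49 has the largest error of all members.

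The earlier times show when the decrease became detectable. After 6 h of RA 0 of 76 members were called in either direction by edgeR, 0 had an unadjusted p under 0.05, and DESeq2 called 0, when 1.51% of all genes fell and 4.1% rose. The median log2 change of the members was -0.08. After 12 h 4 members had fallen and 0 had risen (edgeR, with 0 higher at an unadjusted p under 0.05 and 0 higher by DESeq2), a share of 5.26% near the 5.31% of all genes that fell, when 7.38% of all genes rose. The 4 were Mrps24 (-0.76 ± 0.21), Mrps34 (-0.75 ± 0.18), Mrpl12 (-0.67 ± 0.19) and Mrpl38 (-0.64 ± 0.18). The median was -0.19. Leaving out a single library moved this count between 0, without either 12 h library, and 7, without either 24 h library, and it was 1 without either 6 h library.

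After 24 h of RA 32 members had fallen and 0 had risen (0 higher at an unadjusted p under 0.05 and 0 by DESeq2), 42.1% of the 76 when 13.5% of all genes fell and 15.5% rose. The median log2 change was -0.37, beside -0.014 for all genes. The largest decreases were those of Mrps34 (-1.13 ± 0.18), Mrps18b (-1.01 ± 0.16), Mrpl12 (-0.94 ± 0.19), Mrpl38 (-0.80 ± 0.18) and Mrps24 (-0.79 ± 0.22). The 24 h libraries were unlike each other: against 0 h of the same set the median member was at -0.19 in set 1 and at -0.49 in set 2. Without replicate 2 of 24 h, the library of set 2, 6 members were called, and Mrpl12, Mrpl38 and Mrps24 were no longer among the called (adjusted p = 0.0622, 0.0658 and 0.244). At 48 h the medians within the sets were closer, at -0.58 and -0.70.

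The libraries themselves separated progressively. Both RA libraries lay below all 4 libraries of 0 h for 4 members at 6 h, 16 at 12 h, 30 at 24 h and 58 at 48 h, when the shares of all genes tested were 8.23%, 12.2%, 14.8% and 22.7%. Both lay above all 4 for 4 members at 6 h (Mrpl18, Mrpl39, Mrps33 and Mrps5), for Mrpl39 at 12 h, for none at 24 h and for Mrpl41 at 48 h, beside 10.3%, 13.5%, 19% and 27.4% of all genes. These 4 counts share the 0 h libraries. Within each set taken alone, 71 of 76 members were lower at 48 h than at 0 h in both sets, when 38.4% of all genes were.

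**Figure D4:**
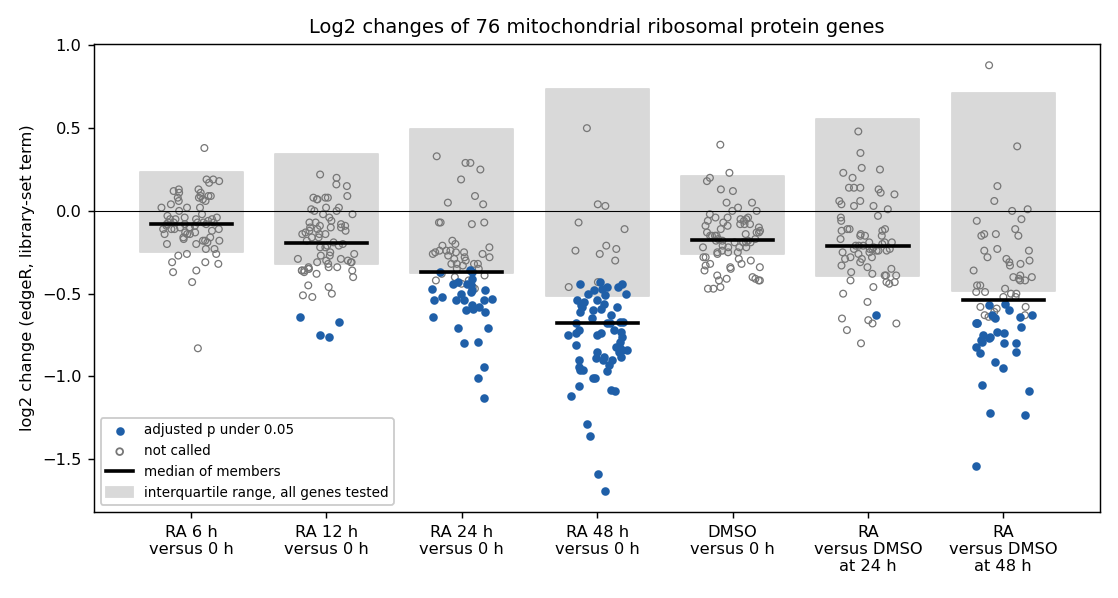
Log2 change (y axis) of each of the 76 members in 7 comparisons (x axis), from fits with the library-set term. Filled circles were called at an adjusted p under 0.05, bars are medians of the members and grey boxes the interquartile range of all genes tested. The median of the members goes from -0.08 at 6 h to -0.68 at 48 h against 0 h and is -0.54 against DMSO at 48 h.

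From 24 to 48 h of RA 7 members fell and 0 rose (0 higher at an unadjusted p under 0.05 and 0 by DESeq2), 9.21% when 4.62% of all genes fell and 6.4% rose. The median log2 change was -0.33. The largest decreases were those of Mrps24 (-0.90 ± 0.24), Mrps28 (-0.83 ± 0.20) and Mrpl28 (-0.69 ± 0.19). Mrps28 stood at 51.9, 52.1, 68.1 and 51.5 CPM at 0 h, at 62.5 and 44.2 CPM at 24 h and at 31.2 and 28.8 CPM at 48 h, and its log2 change against 0 h was -0.07 ± 0.18 at 24 h and -0.90 ± 0.18 at 48 h. Mrpl28 stood at 126 and 87.7 CPM at 24 h and at 67.3 and 64.8 CPM at 48 h, against 107 to 153 CPM at 0 h. This count rests on few libraries: it was 0 without replicate 1 of 24 h or without either 48 h library, 2 to 4 without a 6 h library, a 12 h library or replicate 2 of 0 h, and 20 or 21 without replicate 2 of 24 h or replicate 3 of 0 h. It was 21 in the fit with the replicate block, which held only replicates 1 and 2 of 0 h and of each RA time.

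The DMSO cultures address what time in culture and solvent alone did. Against 0 h the mean of both DMSO libraries differed for 0 of 76 members and for 0% of all genes by edgeR. At an unadjusted p under 0.05 6 members were lower and 0 higher, and DESeq2 called 0 members. The median log2 change of the members was still below 0, at -0.18, beside -0.025 for all genes tested. Of the 76 members 66 lay below 0, when 53.0% of all genes tested did. Mrpl12 was at -0.42 ± 0.21 and Mrps34 at -0.35 ± 0.19. Against DMSO of the same age, 29 members were lower in RA at 48 h and 0 higher (0 higher at an unadjusted p under 0.05 and 0 by DESeq2), 38.2% when 11.5% of all genes were lower and 12.6% higher, with a median of -0.54. The largest differences were those of Mrps24 (-1.54 ± 0.29), Mrps34 (-1.23 ± 0.25) and Mrpl22 (-1.22 ± 0.22). Without the set term Mrps24 was at -1.87 and was not called. Mrpl22, a protein of the exit tunnel, stood at 15.7 and 12.5 CPM in RA and at 35.4 CPM in DMSO at 48 h, but at 19.5 CPM in DMSO at 24 h and 22.1 to 26.9 CPM at 0 h. The DMSO library of 48 h thus held its highest level of all 14 libraries.

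Each DMSO time is 1 library, assumed in the fit to vary like the other groups. The count of 29 became 13 and 16 without replicate 2 or replicate 1 of 48 h and 18 without replicate 2 of 6 h, and it was 7 without the set term. At 24 h only Mrpl13 was lower in RA than in DMSO (-0.63 ± 0.16, adjusted p = 0.0248), 1.32% of the members when 4.61% of all genes were lower and 5.83% higher, and 0 were higher by edgeR, by DESeq2 or at an unadjusted p under 0.05. Mrpl13 stood at 76.4 and 75.2 CPM in RA and at 117 CPM in DMSO, above the 85.1 to 96.2 CPM of 0 h. Its call was lost without replicate 1 of 24 h or replicate 1 of 6 h, and the count was 7 without replicate 3 of 0 h and 2 without replicate 4 of 0 h or replicate 2 of 24 h. Whether the difference from DMSO grew between 24 and 48 h was tested as an interaction, chosen after seeing the data: 0 of 76 members passed by edgeR (0.0619% of all genes did), 6 were lower and 0 higher at an unadjusted p under 0.05, and the median was -0.30. Within set 1, where 0 h and both DMSO times have 1 library each, the 48 h RA library lay below all 3 for 69 of 76 members, when 39.1% of all genes did so.

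Other genes of mitochondrial translation were described from lists chosen with earlier results known, and their counts at 48 h stand beside the 22.9% of all genes tested that fell and the 25.8% that rose. Ribosomal proteins under other symbols shared the direction, with Gadd45gip1, a large subunit protein, at -1.17 ± 0.21, and among 4 small subunit genes Aurkaip1 at -0.83 ± 0.17 and Ptcd3 at -0.66 ± 0.14 called lower, the latter not in set 2 alone (adjusted p = 0.0513). Dap3, a GTP-binding small subunit protein, did not pass (-0.31 ± 0.14, adjusted p = 0.0862). Of 23 genes for assembly of the ribosome 14 fell (60.9%) and 1 rose, with a median of -0.56. Without the set term 9 fell, and in set 2 alone 8 fell and 1 rose. Mterf4, which brings the methyltransferase Nsun4 to the large subunit, fell most, from 106, 84.8, 108 and 138 CPM at 0 h to 29.2 and 26.1 CPM at 48 h, with DMSO at 117 and 124 CPM. Both 48 h libraries lay far below all controls, and the log2 change was -2.0 ± 0.19 (adjusted p = 2.27e-06). Rbfa, a small subunit assembly factor, fell by 1.33 ± 0.18, Mrm2, a methyltransferase of ribosomal RNA, by 1.03 ± 0.21 and Trub2, a pseudouridine synthase, by 1.01 ± 0.18. Mrm2 did not pass without replicate 2 of 48 h (-0.77, adjusted p = 0.057). Malsu1, a factor of late large subunit assembly, went against its list, at 0.97 ± 0.17.

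Of 15 translation factors 9 fell (60%) and 1 rose, with a median of -0.56. Without replicate 2 of 48 h 6 fell, and in set 2 alone 5 did. Tufm, the elongation factor that brings aminoacyl-tRNA to the ribosome, fell by 1.33 ± 0.20, Mrrf, which recycles ribosomes, by 0.97 ± 0.22, Mtrf1, of the release factor family, by 0.85 ± 0.17 and Tsfm, the exchange factor of Tufm, by 0.76 ± 0.19. In set 2 alone Mtrf1 and Tsfm did not pass (adjusted p = 0.061 and 0.0911). Guf1, a GTPase of the ribosome, rose by 0.47 ± 0.17 (adjusted p = 0.0333). Of 17 mitochondrial aminoacyl-tRNA synthetases 10 fell (58.8%) and 0 rose, with a median of -0.61, led by Aars2 (-0.96 ± 0.15), Yars2 (-0.93 ± 0.15), Cars2 (-0.90 ± 0.15) and Ears2 (-0.79 ± 0.20). Without replicate 2 of 48 h, and also in set 2 alone, 5 fell, and Ears2 did not pass (adjusted p = 0.0545 and 0.1).

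Among 14 genes that copy, transcribe or process mitochondrial DNA and its RNA 9 fell (64.3%) and 0 rose, with a median of -0.63. Without replicate 2 of 48 h, and also in set 2 alone, 5 fell. Elac2, which cuts the 3′ ends of tRNA precursors, fell by 1.29 ± 0.13, Twnk, the replicative helicase, by 1.02 ± 0.15, Supv3l1, an RNA helicase, by 0.89 ± 0.13, Tfam, which packs the DNA and starts its transcription, by 0.75 ± 0.11 and Polrmt, the RNA polymerase, by 0.72 ± 0.16. Polrmt did not pass without replicate 2 of 48 h (-0.53, adjusted p = 0.0951). The messenger RNAs of mitochondrial DNA gave another picture. Only 7 of the 13 passed the filter, because the others were at or near 0 counts in these tables, and 1 of the 7 fell, with a median of -0.08. It was mt-Nd1, at -0.36 ± 0.13 (adjusted p = 0.0401), whose call was lost under several settings (-0.10 without replicate 2 of 48 h). Its 48 h libraries, at 4100 and 3847 CPM, were not below its DMSO libraries, at 3718 and 3846 CPM. Summed, the 13 messenger RNAs took 19111 to 20458 CPM at 0 h, 14682 to 16450 CPM at 24 h and 17903 to 18267 CPM at 48 h. The lowest level was thus at 24 h, and the 48 h libraries stood within the DMSO libraries' 17643 and 19224 CPM.

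**Figure D5:**
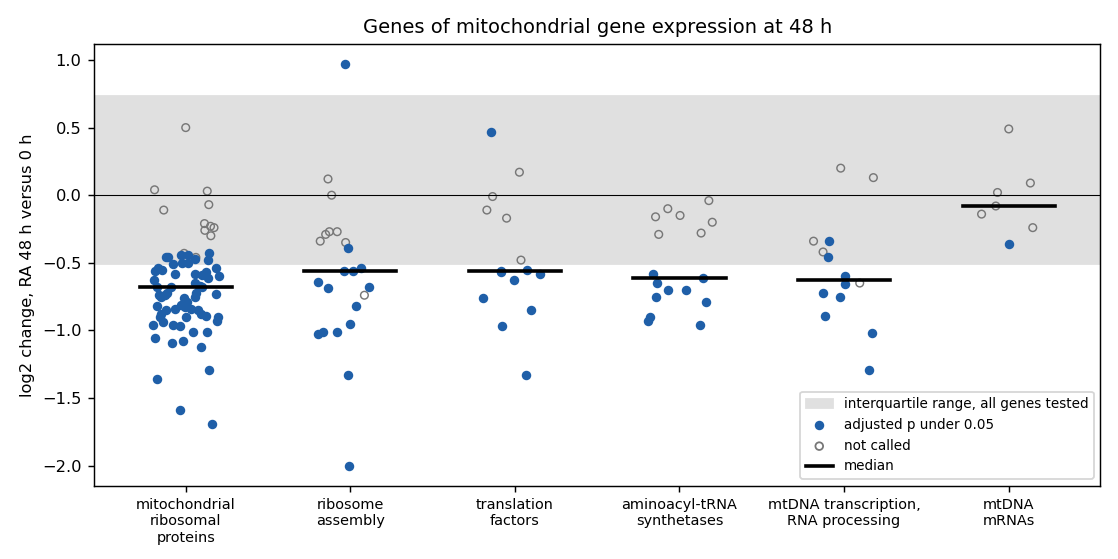
Log2 change at 48 h of RA against 0 h (y axis) of single genes in 6 gene lists (x axis), with filled circles for called genes, bars for medians and a grey band for the interquartile range of all genes tested. The members lie at a median of -0.68, 4 lists of nuclear genes between -0.56 and -0.63, and mitochondrial mRNAs at -0.08.

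Of 9 tested regulators known to act on nuclear genes for mitochondria 5 fell (55.6%) and 1 rose at 48 h. Without replicate 1 of 48 h, and also in set 2 alone, 3 fell and 0 rose. Myc, a transcription factor of growth, stood at 281, 132, 224 and 232 CPM at 0 h, at 53.5 and 28.4 CPM after 24 h, at 42.5 and 25.2 CPM after 48 h and at 282 and 264 CPM in DMSO. All RA libraries of both times lay below all controls, with a log2 change of -2.94 ± 0.25 at 48 h (adjusted p = 1.12e-06). The coactivators Pprc1 and Ppargc1b were at -1.11 ± 0.12 and -1.37 ± 0.40, the latter called at an adjusted p of 0.012. Ppargc1b was not called without replicate 1 of 48 h (-1.01) or in set 2 alone (-1.06). It also did not pass without the set term (-1.28, adjusted p = 0.052) or with the replicate block (-1.16, adjusted p = 0.0553). Its level was low, at 3.73 to 4.57 CPM at 0 h, 10.8 and 5.71 CPM at 6 h, and 1.33 and 1.92 CPM at 48 h. Nrf1 went from 89 to 101 CPM at 0 h to 68 and 53.3 CPM at 48 h, a log2 change of -0.73 ± 0.12. Gabpa, the ETS factor whose motif was counted above, was at -0.41 ± 0.15 (adjusted p = 0.0397), and stood at 226 and 289 CPM after 6 h of RA against 173 to 216 CPM at 0 h. Its call at 48 h was lost under 9 of the settings, with an adjusted p of 0.0595 to 0.311. Esrra, a nuclear receptor of energy metabolism, rose by 0.67 ± 0.17, from 13 to 18 CPM at 0 h to 33.1 and 23.4 CPM at 48 h. Its DMSO libraries, at 22.7 and 23.3 CPM, also lay above all of 0 h. As the only riser of its list, Esrra was not called without replicate 1 of 48 h or in set 2 alone.

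Among genes with a promoter window, the ETS motif was found at 20 of 56 members called lower at 48 h (35.7%) and at 4 of 11 not called (36.4%), and the NRF1 motif at 19.6% and 18.2%. The YY1 motif was found at 11 of the 56 (19.6%) and 1 of the 11 (9.09%), and the E-box at 5 and 0. With so few members not called, these shares are a description only.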

How the data were processed

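The authors deposited 1 table of raw, unnormalized counts for each library, with Ensembl gene identifiers. The tools named per the submitters' processing notes, include TopHat2 2.0.7, with HTSeq and DESeq, and the build is mm9; options are not given in the sources used here. Symbols came from a table of Ensembl identifiers, which matched 31841 of 36814. The 5 entries for reads given to no gene, 72.52 to 76.78% of all counts, were left out. The deposited region list was not used here.

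A single model of all 14 libraries was fitted (edgeR 4.0.16, R 4.3.3, TMM, robust quasi-likelihood F-test, default filter by group). It had 1 term per group and 1 for library set. The set was read from the reads in no annotated feature, as a share of these reads plus the gene counts. P-values are two-sided, adjusted by the Benjamini-Hochberg method over 16155 genes, and called under 0.05. The SE is the absolute log2 change over the square root of F. DESeq2 1.42.0, RLE normalization, other filters, a threshold of 0.01, no set term, set 2 alone, the replicate number as a block and each library left out were alternatives. The replicate block was fitted on replicates 1 and 2 of 0 h and of each RA time only, where it equals the set term. Summaries and plots used Python 3.11.15, pandas 2.3.3, NumPy 2.4.6 and matplotlib 3.10.9. The fit with the set term was tested on simulated data for 48 h of RA against 0 h only. The planted changes were larger than the median change of the members. Comparisons with DMSO were not covered, and the outcome is not reported here.

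Number 1 libraries deviated from number 2 alike in all groups (r from 0.678 to 0.838 across genes, 10 pairs of groups), so the numbers pair the libraries, but number and set coincide. Replicates differed by more than counting error (chi-square per degree of freedom 10.1 to 61.9, 10 pairs). Members and lists were chosen with earlier results of these data known. Genes were named by size of change (8 each way at 48 h, 5 at 24 h, 3 elsewhere, 4 per other list) or as fixed members. Mrpl24, Mrpl39, Mrpl43, Mrpl48, Mrpl23, Mrps21, Mrps33, Mrps15, Mrps31, Mrpl53, Malsu1, Guf1, Sars2 and Esrra were named after their values were seen. Promoter motifs, neighbours and overlaps came from RefSeq on GRCm38.p6, not from the build of the counts, and gene positions on mm9 were not used here.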

Additional observations from a re-analysis of the deposited data

Results flagged for a closer look

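At 0 h 25 named members were checked for a library far from the other 3, which chance alone gives in about 1 of 20 groups. Mrps28 had its highest 0 h value, 68.1 CPM, in replicate 3, and the others lay at 51.5 to 52.1 CPM. Mrps5 had its lowest, 80.3 CPM, in replicate 4, beside 88 to 89 CPM in the others.

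The change against 0 h differed between 24 and 48 h of RA for 7 members by edgeR's quasi-likelihood test. The log2 difference from 24 to 48 h was -0.90 for Mrps24, -0.83 for Mrps28, -0.69 for Mrpl28, -0.60 for Mrpl18, -0.57 for Mrpl11, -0.54 for Mrps15 and -0.53 for Mrps31, with an adjusted p of 0.0146 to 0.0415. Each of these times has 2 libraries, and all 7 calls were lost when either library of 48 h or replicate 1 of 24 h was left out.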

How the results depend on the processing

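The decrease at 48 h of RA held its direction under every setting, with members called in number from 40 (library set 2 alone) to 65 and medians of -0.77 to -0.63 when a library was left out. Leaving out each library gave 0 to 7 members called at 12 h, 6 to 34 at 24 h, 40 to 65 at 48 h, 0 to 21 from 24 to 48 h, 0 to 7 against DMSO at 24 h and 13 to 35 against DMSO at 48 h. Without the set term (no replicate block) the counts were 0 at 12 h, 6 at 24 h, 45 at 48 h, 0 from 24 to 48 h, 0 against DMSO at 24 h and 7 at 48 h. In set 2 alone they were 0, 7, 40 and 0 for the first 4 of these. The fit with the replicate block held only replicates 1 and 2 of 0 h and of each RA time, where number and set coincide. It thus differed from the main fit by leaving out 0 h replicates 3 and 4 and both DMSO libraries. Its counts were 2, 22, 60 (59 lower and 1 higher) and 21. Mrpl12 at 12 h (-0.40, adjusted p = 0.0627) and Mrps18a, Ppargc1b and mt-Nd1 at 48 h were not called in that fit. At an adjusted p under 0.01 the counts of the main fit were 0, 9, 58 and 0, and 0 and 15 against DMSO at 24 and 48 h. A filter of 1 CPM in 4 libraries left 3 from 24 to 48 h. Against DMSO at 24 h RLE normalization gave 2, DESeq2 3 and no filter 3. Among the 63 pairs of a named gene and a comparison, the sign changed only for Mrps6 at 48 h. Its log2 change was -0.01 and -0.04 when 0 h lost replicate 1 or 2, and -0.00 when 48 h lost replicate 1. The range for Mrps6 over libraries left out was -0.04 to 0.16. The cause of these shifts was not tested. Over 63 pairs of a named gene and a comparison, 103 of 1311 other values lost a call and 5 gained one. Groups of 1 or 2 libraries, single DMSO libraries in set 1 and depth below 3 CPM for Mrpl23 limit what could be detected.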
